A study of Sus scrofa with 8 samples.

Results

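Collagens are extracellular proteins built from 3 chains that wind into a triple helix, and each chain is encoded by its own gene. Fibrillar collagens assemble into the fibres of connective tissue, type IV collagens form the sheet-like network of basement membranes, and the remaining types decorate fibrils, form beaded filaments or short networks, or span the cell membrane. In normal liver, collagen is found mainly in portal tracts, around central veins and as sparse fibres along the sinusoids. Hepatic stellate cells and portal fibroblasts are its best known sources, and its build-up is the hallmark of liver fibrosis.

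The collagen chain genes were the rows of the mRNA table whose pig identifier carries a symbol made of COL, a number, A and a number. Of 40 such symbols in the table of names, 31 had a row among the 21607 listed mRNAs, and these 31 genes are described here. They comprise 9 chains of fibrillar types (I, II, III, V, XI and XXVII), 5 chains of type IV and 17 chains of other types. COL1A1 and COL4A1, the usual partners of COL1A2 and COL4A2, were among the 9 symbols whose identifier had no row and were not analysed here, so neither heterotrimer could be followed as a whole.

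Liver was taken from 4 healthy sows of the Yanan (or Yana) pig, a local breed of China, and each animal gave 1 rRNA-depleted RNA-seq library. The 2 young sows were 180 days old and the 2 old sows 8 years old. No blood relationship is known among the 4 animals over recent generations. According to the paper, the young sows had never farrowed and the old sows had borne litters over many years. Age and reproductive history therefore cannot be told apart here. With 2 animals per age, an exact permutation test of a single value cannot give a two-sided p-value below 0.333. Values are CPM, reads scaled to the size of each library by a total the authors leave unnamed, and they are not divided by gene length, so they compare a gene between livers and not one gene with another.

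Between 22482241 and 37555696 mRNA reads were recovered per library, more in young than in old livers, and the 31 collagen genes held 2794 and 3823 of them in young replicates 1 and 2 and 1449 and 4059 in old replicates 1 and 2. Intervals on these counts cover counting error only. An exact 0 is less certain in the young livers, since 41 and 106 mRNAs were listed at 0 in young replicates 1 and 2 although each other library had at least 1 CPM, against 3 and 5 in the old livers. Old replicate 1 stood apart through interferon-stimulated genes, with 1824 summed CPM over the 11 listed against 44.2 to 62.8 in the other 3 libraries. Hepatocyte markers reached 23583 to 50666 summed CPM, and all 9 of them were above 0 in every library.

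Taken by age, the fibrillar chains with the most reads, COL3A1, COL1A2 and COL5A2, overlapped. Several chains of the basement membrane and of type VI had larger values in both old livers, and COL6A5 and COL14A1 smaller ones. Counted by class, 4 of 8 fibrillar, 3 of 5 type IV and 7 of 17 other chains tested were higher in both old livers (24.4% of all mRNAs). Below were 0, 0 and 2 (25%). The 4 fibrillar chains had under 100 summed reads each and include COL11A1, at 0 in both young livers, which could only be higher. In limma on log2(CPM + 1), 0 of the 30 collagen genes tested passed both thresholds of a call, an adjusted p-value of 0.05 and a log2 fold change of 1 in size, as for 0% of the 16898 mRNAs tested, and their adjusted p-values ran from 0.217 to 0.991. At an unadjusted p-value under 0.05, 3 of 30 were higher (10%, against 6.78% of all mRNAs) and 1 was lower (3.33% against 8.93%). The exact test of edgeR on whole reads called 0 collagen genes, where it called 2.68% of all mRNAs higher and 0.462% lower, and its unadjusted p-value fell under 0.05 for 5 collagen genes on the higher and 1 on the lower side (10.2% and 2.76% of all mRNAs). The quasi-likelihood test also called 0 collagen genes and 0% of all mRNAs. Its unadjusted p-value fell under 0.05 for 6 collagen genes on the higher and 1 on the lower side, where all mRNAs gave 11.5% and 3.2%. Among these higher genes, COL23A1 (both tests of edgeR) and COL17A1 (quasi-likelihood) were at 0 in both young livers, so they could only be higher. Without old replicate 2 the 3 higher genes of limma became 1, without old replicate 1 they became 5, without young replicate 1 they became 2, and without old replicate 1 the lower gene was lost.

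**Figure D1:**
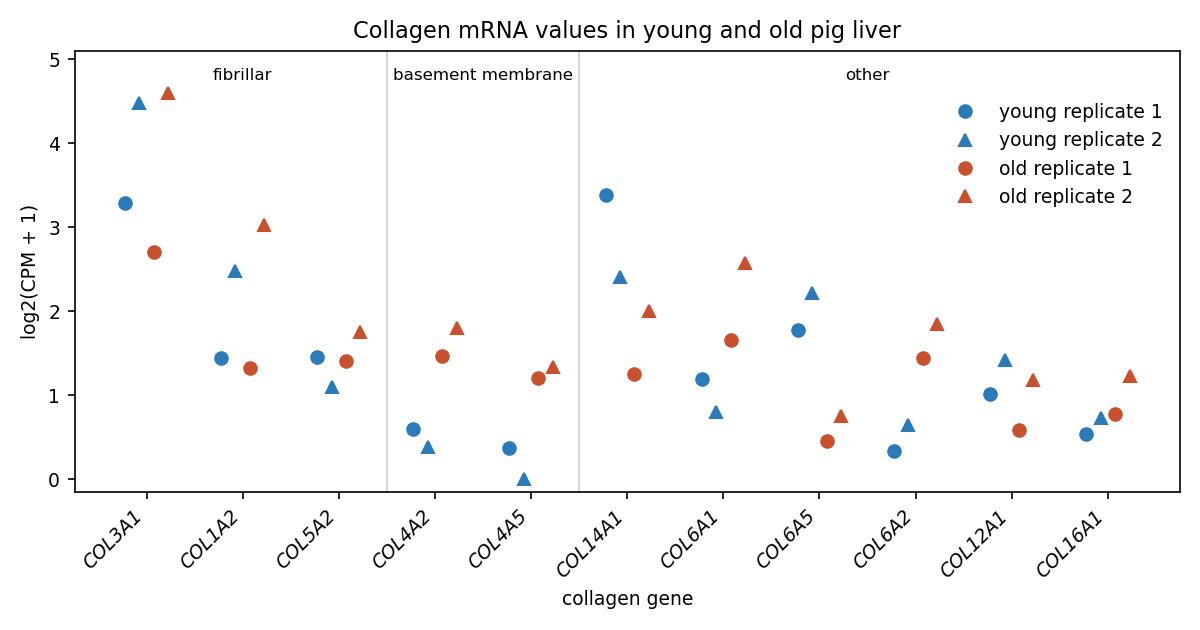
Values of the 11 collagen genes given one by one, as log2(CPM + 1) on the vertical axis, with 1 point per library (blue young, red old, circle replicate 1, triangle replicate 2). The fibrillar genes COL3A1 and COL1A2 separate replicate 1 from replicate 2 within each age, whereas both old livers lie above both young livers for COL4A2, COL4A5, COL6A1 and COL6A2 and below them for COL6A5 and COL14A1. COL4A5 and COL16A1 are drawn because their age groups do not overlap, so their order was a condition of being drawn.

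COL3A1 (ENSSSCG00000016034), the single chain of type III collagen and a major fibre of portal tracts, had 8.75 and 21.4 CPM in the young pair and 5.53 and 23.1 CPM in the old livers. These values rest on 804 and 1849 reads in the young and 340 and 1661 reads in the old livers. The lowest and the highest values were both from old livers, so the age groups overlapped completely. The ratio of replicate 2 to replicate 1 was 2.44 in the young and 4.19 in the old pair, against a ratio of the age means of 0.951. The log2 fold change was -0.24 (standard error 0.88, 95% interval -2.92 to 2.44, adjusted p = 0.935, limma), an interval wide enough to hold a large change in either direction. It took the opposite sign without young replicate 2 (0.36) and without old replicate 1 (0.71).

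COL1A2 (ENSSSCG00000015326), the second chain of type I collagen, was ordered over the 4 livers in the same way, with 1.72 and 4.55 CPM in the young sows and 1.51 and 7.16 CPM in the old livers. Replicate 2 exceeded replicate 1 by 2.65 times in the young and 4.74 times in the old pair. Its log2 fold change was 0.22 (standard error 0.79, 95% interval -2.17 to 2.61, adjusted p = 0.931, limma), and it was -0.29 without young replicate 1 and -0.63 without old replicate 2. COL5A2 (ENSSSCG00000016035), a chain of type V collagen, which takes part in starting fibrils, had 1.74 and 1.14 CPM in the young sows and 1.66 and 2.37 CPM in the old livers. Its groups overlapped narrowly (log2 fold change 0.30, standard error 0.22, adjusted p = 0.595, limma), and after scaling by TMM both old livers lay above both young livers.

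Of the other type V chains, COL5A3 had between 18 and 60 reads per library with overlapping groups. COL5A1 had 8 and 13 reads in the young and 23 and 43 in the old livers, or 0.0870 and 0.150 against 0.374 and 0.599 CPM. Both old livers were above both young livers for COL5A1, with a ratio of means of 4.11, an adjusted p-value of 0.333 in limma and a log2 fold change of 0.41 on log2(CPM + 1) but of 2.21 in edgeR, where COL6A1 had 2.003. The chains best known from cartilage were at the edge of detection. COL2A1, COL11A1 and COL11A2 had at most 3 reads in any library, and COL11A2, with 1 read in all, was the 1 collagen gene left out of the test. Cartilage and bone markers summed to at most 0.961 CPM over the 6 listed. COL27A1 had 3 to 7 reads per library.

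Within a library, the ratio of 2 chains does not depend on depth or scaling. The ratio of COL5A1 to COL5A2 was 0.0499 and 0.131 in the young and 0.226 and 0.253 in the old livers (p = 0.333, two-sided exact permutation test, the smallest this design can give), with 8 and 13 reads of COL5A1 behind the young values. The ratio of COL3A1 to COL1A2, chosen after its values were seen, was 5.09 and 4.69 in the young and 3.66 and 3.23 in the old livers. Both ratios separated the ages without overlap, although the levels of COL3A1 and COL1A2 themselves did not.

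**Figure D2:**
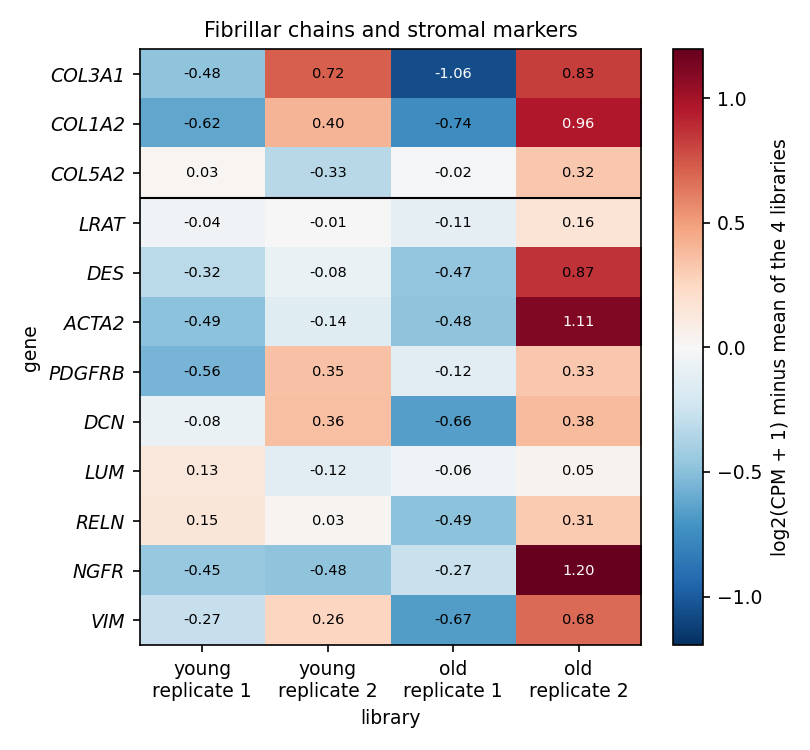
Each cell gives log2(CPM + 1) of a gene in a library minus the mean of that gene over the 4 libraries, for 3 fibrillar chains (above the line) and 9 stellate cell and fibroblast markers (below it). COL3A1 and COL1A2 are high in replicate 2 and low in replicate 1 of both ages, and all 9 markers are higher in old replicate 2 than in old replicate 1.

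The spread of COL3A1 and COL1A2 between livers of the same age was set beside markers of the cells known to make them. Other fibrillar chains did not share it, as COL5A2 was lower in young replicate 2 than in young replicate 1 and COL5A3 was lower in old replicate 2 (26 reads) than in old replicate 1 (60 reads), and replicate 2 was the higher for 4 of 9 fibrillar chains in the young and 7 of 9 in the old pair. Over 9 listed stellate cell and fibroblast markers, none of them a collagen, the summed values were 25 and 34.6 CPM in the young sows and 19.3 and 54.9 CPM in the old livers, the same order as COL3A1 and COL1A2. Old replicate 2 exceeded old replicate 1 for 9 of these 9 markers, against 49.8% of all mRNAs tested, and young replicate 2 exceeded young replicate 1 for 6 of 9, against 41.6%. This order was not particular to these markers, since old replicate 2 was also the higher for 6 of 6 smooth muscle, 5 of 5 cholangiocyte and 7 of 9 hepatocyte markers, and young replicate 2 for 5 of 6, 2 of 5 and 5 of 9. Only LUM, listed at 0 in young replicate 2, was at 0 in any library. VIM, a filament protein, led the markers in each library (12.1 and 17.9 CPM in the young, 8.91 and 24.3 CPM in the old livers). Taken gene by gene, LRAT, DES, DCN and VIM were ordered as COL3A1, and ACTA2, PDGFRB, LUM, RELN and NGFR were not. The filament protein ACTA2 had 3.18 and 4.32 against 3.22 and 11.7 CPM. LRAT, which acts in the vitamin A storage of stellate cells, ran from 1.80 to 2.38 CPM over the 4 livers. DCN and LUM stand both in this list and among the proteoglycans below. The part of stromal cell content in the fibrillar values was not tested, and in pieces of whole liver fewer cells of a type and less RNA per cell cannot be told apart.

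COL4A2 (ENSSSCG00000009545), a chain of the type IV collagen present in most basement membranes, had 0.512 and 0.30 CPM in the young sows and 1.76 and 2.48 CPM in the old livers. The reads were 47 and 26 in the young and 108 and 178 in the old livers, although the old libraries were the shallower ones. Their 95% exact Poisson intervals, 34.5 to 62.5 and 17 to 38.1 against 88.6 to 130 and 153 to 206, did not overlap between ages. The intervals of the 2 old livers did not overlap each other either, and such intervals leave out variation between animals. The mean of the old livers was 5.21 times that of the young livers. On log2(CPM + 1), a scale that understates changes of low values, the fold change was 1.14 (standard error 0.19, 95% interval 0.57 to 1.72), with an unadjusted p-value of 0.00718 and an adjusted p-value of 0.217 in limma. Its unadjusted p-value was under 0.05 in 13 of 13 alternative fits, and the adjusted p-value of the exact test of edgeR was 0.0517.

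COL4A5 (ENSSSCG00000012572), a chain best known from the basement membranes of the kidney, had 0.294 CPM in young replicate 1, was listed at 0 in young replicate 2 and had 1.30 and 1.52 CPM in the old livers. The reads were 27, 0, 80 and 109, so both old livers were above both young livers. By limma the log2 fold change came to 1.08, with a standard error of 0.19 and an adjusted p-value of 0.223, and it was 0.89 without young replicate 2, the library with the listed 0. Its unadjusted p-value was under 0.05 in 8 of 12 alternative fits, and the adjusted p-value of the exact test of edgeR was 0.521. COL4A3 and COL4A4, whose products pair with that of COL4A5 in one type IV trimer, had 22 to 50 and 24 to 26 reads per library. The reads of COL4A4 were nearly equal in the 4 libraries, and its CPM of 0.261 and 0.289 in the young and 0.390 and 0.362 in the old livers differed through the library totals. COL4A6, partner of COL4A5 in another trimer, had 11 to 33 reads with overlapping groups. The interval of the log2 fold change ran from -0.53 to 0.42 for COL4A3 and from -0.44 to 0.54 for COL4A6. The estimate of 1.08 for COL4A5 lay outside both, but its own interval, 0.51 to 1.65, overlapped that of COL4A6. This scale understates changes of such low values. The differences between these genes were not themselves tested.

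The 5 type IV chains summed to 1.89 and 1.11 CPM in the young sows and 3.98 and 5.15 CPM in the old livers, a ratio of means of 3.04 (p = 0.333, two-sided exact permutation test, the smallest possible). This ratio lay between 2.41 and 4.12 with 1 library left out. The difference rested mostly on COL4A2 and COL4A5, the latter listed at 0 in young replicate 2. COL4A3 and COL4A6 overlapped between ages, and COL4A4 had 0.261 and 0.289 against 0.390 and 0.362 CPM. The fibrillar chains summed to 20.2 ± 10.8 CPM in the young sows and 22 ± 16.7 CPM in the old livers (SD, n = 2 each; exact permutation p = 1), and their ratio of 1.09 moved between 0.504 without old replicate 2 and 1.75 without young replicate 2. The 17 other chains summed to 15.6 ± 0.488 and 13.5 ± 5.78 CPM (SD, n = 2 each; exact permutation p = 1), with chains of opposite direction within the sum.

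**Figure D3:**
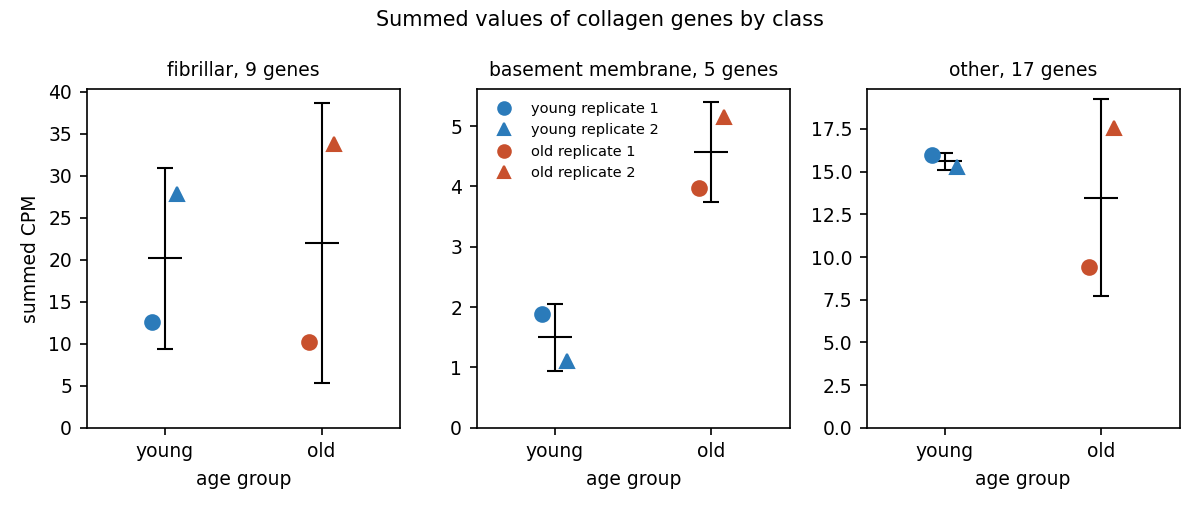
Summed CPM of the fibrillar, basement membrane and other collagen genes, with 1 point per library and a bar for the mean ± SD of each age (n = 2). The ages overlap for the fibrillar and other classes, and only the type IV sum, at most 1.89 CPM in young and at least 3.98 CPM in old livers, does not overlap. The difference in the type IV sum rests mostly on COL4A2 and COL4A5.

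Laminins and the other basement membrane proteins, 12 of them listed, gave 0 adjusted calls in limma. Past an unadjusted p-value of 0.05 were 1 gene (LAMB3, a laminin chain) on the higher side and 0 on the lower (6.78% and 8.93% of all mRNAs). Both old livers were above both young livers for 4 of the 11 tested, an order found in 24.4% of all mRNAs. HSPG2, the proteoglycan perlecan, had 0.610 and 0.774 CPM in the young sows and 1.22 and 2.63 CPM in the old livers (adjusted p = 0.381, limma), and AGRN, or agrin, had 0.261 and 0.462 against 3.01 and 1.016 CPM (adjusted p = 0.365). NID1, which links laminin to type IV collagen, was ordered as COL3A1, with 6.36 and 10.9 CPM in the young sows and 2.34 and 11.6 CPM in the old livers. The 6 listed endothelial markers summed to 46.1 and 42.2 CPM in the young sows and 71.8 and 49.3 CPM in the old livers with none at 0 in all libraries, and smooth muscle markers to 7.93 and 11.9 against 16.1 and 26.1 CPM over 6 genes. Among the latter, TAGLN, an actin-binding protein, had 2.49 and 3.78 CPM in the young sows and 9.80 and 13.7 CPM in the old livers (adjusted p = 0.218 in limma and 0.0300 in the exact test of edgeR). The endothelial sum rested on LYVE1 in old replicate 1 (36.5 CPM, against 7.49 to 8.90 CPM in the other libraries), and its genes differed in direction, with PECAM1 higher (10.5 and 8.92 against 23.8 and 13.8 CPM) and TEK lower (9.42 and 8.67 against 3.14 and 8.01 CPM) in both old livers. The smooth muscle sum was higher in both old livers, as the type IV sum was, but TAGLN was its only marker higher in both. ACTG2 was lower in both old livers (3.07 and 2.02 against 1.64 and 1.68 CPM), and MYH11, CNN1, SYNPO2 and MYLK overlapped. The part of smooth muscle in the type IV values was not tested.

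Type VI collagen forms beaded microfilaments around cells, and its common trimer joins the chains of COL6A1, COL6A2 and COL6A3. COL6A1 (ENSSSCG00000022506) had 1.30 and 0.739 CPM in the young sows and 2.15 and 4.96 CPM in the old livers, and COL6A2 (ENSSSCG00000028022) had 0.261 and 0.566 against 1.72 and 2.59 CPM. Both old livers were above both young livers for each. In limma the log2 fold change of COL6A1 came to 1.12 (standard error 0.41, adjusted p = 0.349) and that of COL6A2 to 1.15 (standard error 0.23, adjusted p = 0.230). COL6A3 (ENSSSCG00000027331) overlapped between ages, with 0.283 and 0.705 CPM in the young sows and 0.536 and 1.016 CPM in the old livers, and its interval of -0.50 to 1.0 on the log2 scale does not exclude a change of moderate size.

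COL6A5 (ENSSSCG00000011186), whose chain resembles that of COL6A3, had 2.44 and 3.64 CPM in the young sows and 0.374 and 0.682 CPM in the old livers, from 224 and 315 against 23 and 49 reads. The mean of the young livers was 5.76 times that of the old livers. Its log2 fold change was -1.39 (standard error 0.23, 95% interval -2.09 to -0.69), with an unadjusted p-value of 0.00707, an adjusted p-value of 0.217 in limma and one of 0.0740 in the exact test of edgeR. The unadjusted p-value was under 0.05 in 12 of 13 alternative fits and not without old replicate 1. Within a library, the ratio of COL6A5 to COL6A3 was 8.62 and 5.16 in the young and 0.698 and 0.671 in the old livers, a pair chosen after its values were seen. The ratio of COL6A1 to COL6A2 overlapped between ages, at 4.97 and 1.31 in the young and 1.25 and 1.91 in the old livers (exact permutation p = 0.667), as did that of COL6A3 to COL6A1, at 0.218 and 0.954 against 0.250 and 0.205 (exact permutation p = 0.667).

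**Figure D4:**
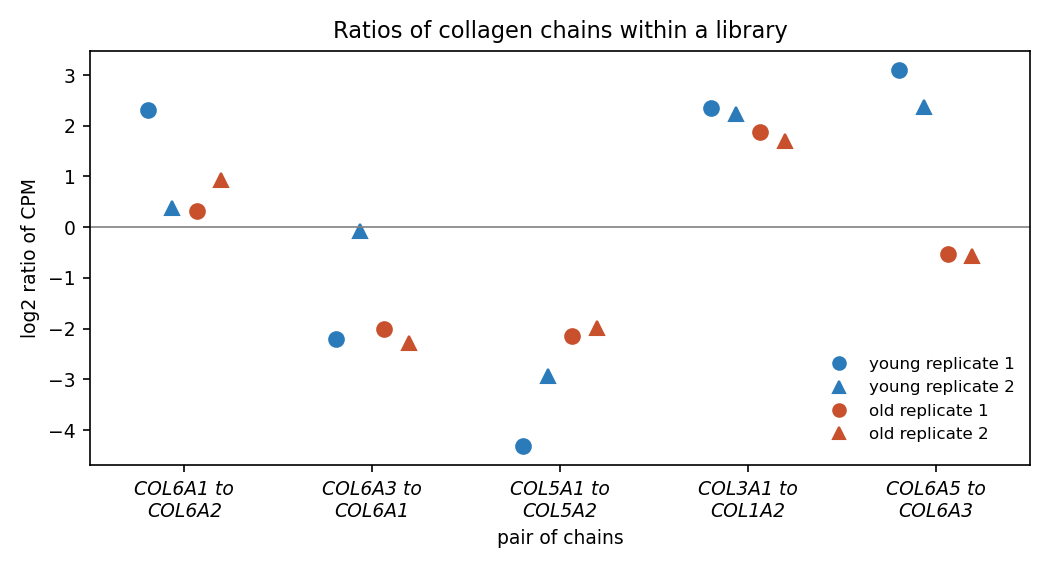
Log2 ratio of the CPM of 2 collagen chains within each library, for 5 pairs on the horizontal axis (blue young, red old, circle replicate 1, triangle replicate 2). The ratio of COL6A5 to COL6A3 is lower in both old than in both young livers, whereas those of COL6A1 to COL6A2 and of COL6A3 to COL6A1 overlap between ages. The pairs COL6A5 to COL6A3 and COL3A1 to COL1A2 were chosen after their values were seen. CPM are not divided by gene length, so the position of a ratio against 0 has no meaning.

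Fibril-associated collagens lie on the surface of fibrils without forming fibrils themselves. COL14A1 (ENSSSCG00000005997) had 9.40 and 4.30 CPM in the young sows and 1.38 and 2.99 CPM in the old livers, from 863 and 372 against 85 and 215 reads. The groups did not overlap, but the livers of each age differed by more than 2 times (log2 fold change -1.27, standard error 0.49, 95% interval -2.76 to 0.23, adjusted p = 0.367, limma). COL12A1 (ENSSSCG00000004484), its close relative, overlapped, with 1.01 and 1.68 CPM in the young sows and 0.504 and 1.27 CPM in the old livers (log2 fold change -0.33, standard error 0.30, adjusted p = 0.673, limma). COL16A1 (ENSSSCG00000003603) had 0.457 and 0.659 against 0.715 and 1.34 CPM, with the old livers above the young livers by a small margin (log2 fold change 0.36, standard error 0.22, adjusted p = 0.520, limma).

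The remaining collagen genes were sparse. COL13A1, a membrane-spanning chain, had 45 to 80 reads and 0.675 to 0.924 CPM over the 4 livers. COL8A1, which forms networks around vessels, had 1 read in young replicate 1 and 107 in young replicate 2, against 15 and 51 in the old livers, and COL21A1 had 0 and 64 against 20 and 29, so both differed most within the young pair. COL15A1, found beneath endothelium, had 0 and 6 reads in the young and 16 and 41 in the old livers (adjusted p = 0.360, limma). COL9A1, COL10A1, COL17A1, COL22A1, COL23A1 and COL28A1 had at most 10 reads in any library. Of these, COL23A1 and COL17A1, like COL11A1 among the fibrillar chains, were at 0 in both young livers and entered the test through the old livers alone, so that they could only be higher there.

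**Figure D5:**
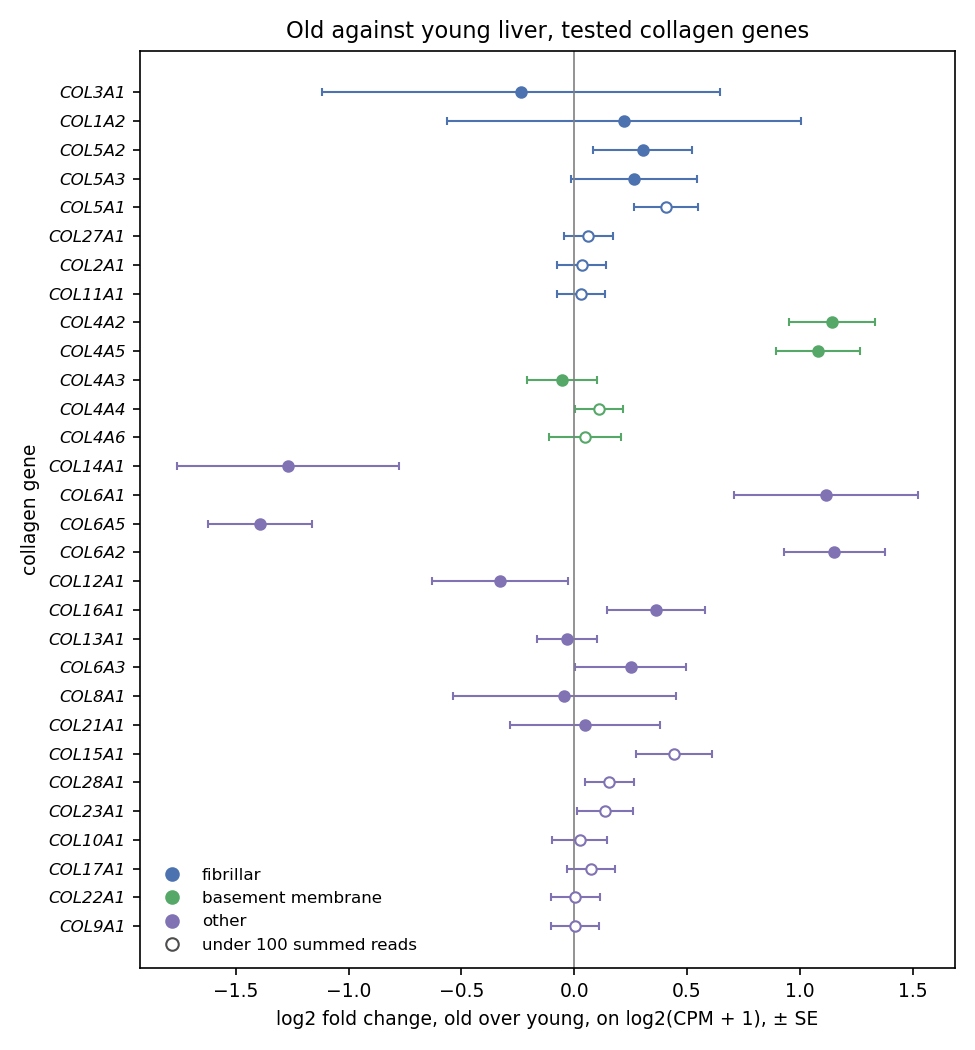
Log2 fold change of old over young livers for the 30 tested collagen genes, with bars for ± 1 standard error (limma on log2(CPM + 1)), coloured by class and open for genes with under 100 reads summed over the libraries. On this scale, which shrinks the changes of low genes such as COL5A1, no fibrillar gene lies beyond 0.41 in either direction, whereas COL4A2, COL4A5, COL6A1 and COL6A2 lie above 1 and COL6A5 and COL14A1 below -1.

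Over all 30 tested genes, both old livers were above both young livers for 14 (46.7%, against 24.4% of all mRNAs tested) and below them for 2 (6.67% against 25%). Of the 14, COL11A1, COL17A1 and COL23A1 were at 0 in both young livers and entered through the old livers alone, so their direction was fixed. Most of the 14 had under 100 reads over the 4 libraries. Among the 17 collagen genes with at least 100 reads over the 4 libraries, 5 lay above (29.4%, against 19.1% of mRNAs with as many reads) and 2 below (11.8% against 29.7%). COL4A2, COL4A5, COL6A2 and COL16A1 reached that limit only with the reads of the old livers, where they were higher. COL6A5 reached it only with those of the young livers, so these shares depend in part on the limit itself. The median log2 fold change was 0.14 for the fibrillar, 0.11 for the type IV and 0.05 for the other chains tested, beside -0.02 for all mRNAs, and the library medians of these classes differed between replicates by an SD of 0.102, 0.0585 and 0.0515. No test was made of these lists as wholes.

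The proteins that make, process, break down and sense collagen showed 0 adjusted calls in limma in any of the lists examined. Of 15 listed genes of collagen folding and modification, 0 passed an unadjusted p-value of 0.05 on the higher or lower side (6.78% and 8.93% of all mRNAs). Among them, 4 lay lower and 1 higher in both old livers (25% and 24.4% of all mRNAs). PLOD2, a lysyl hydroxylase, had 3.54 and 2.68 CPM in the young sows and 2.13 and 1.74 CPM in the old livers (adjusted p = 0.350, limma). P4HA2, a catalytic subunit of the prolyl hydroxylase that stabilises the helix, had 4.18 and 3.29 against 2.62 and 3.09 CPM (adjusted p = 0.498), and MIA3, which loads procollagen for export, had 4.57 and 4.36 against 4.88 and 7.09 CPM (adjusted p = 0.542). Of 14 genes of processing and cross-linking, 1 passed an unadjusted p-value of 0.05, on the higher side (6.78% of all mRNAs). This was TGM2, a transglutaminase that cross-links matrix proteins, with 1.64 and 1.40 CPM in the young sows and 6.27 and 3.27 CPM in the old livers (adjusted p = 0.280). PCOLCE, an enhancer of procollagen cleavage, had 1.33 and 3.35 against 3.74 and 4.69 CPM (adjusted p = 0.483). SPARC, a collagen-binding protein, followed COL3A1 over the livers, with 20.5 and 39.0 CPM in the young sows and 13.3 and 47.3 CPM in the old livers.

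Of 18 listed genes of collagen breakdown and its inhibitors, 16 were tested, with 0 adjusted calls in limma. PEPD, which splits proline dipeptides during collagen recycling, had 31.1 and 24 CPM in the young sows and 37.8 and 46.5 CPM in the old livers (adjusted p = 0.339, limma), and MMP14, a membrane-bound collagenase, had 4.97 and 3.72 against 3.28 and 2.84 CPM (adjusted p = 0.430). TIMP1, an inhibitor of metalloproteinases, overlapped, with 0.316 and 1.85 CPM in the young, 6.57 CPM in old replicate 1 and 1.23 CPM in old replicate 2. MMP8 and MMP13, which cleave fibrillar collagen, each had a value above 0 in old replicate 2 alone, at 0.0140 CPM.

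Of 8 collagen receptors tested, limma put 2 past an unadjusted p-value of 0.05, both on the higher side (6.78% of all mRNAs). ADGRG1, a receptor for type III collagen, had 0.849 and 1.07 CPM in the young sows and 2.93 and 2.49 CPM in the old livers (adjusted p = 0.215), and DDR1, a receptor tyrosine kinase, had 0.457 and 0.393 against 1.27 and 0.835 CPM (adjusted p = 0.305). ITGB1, the shared subunit of the collagen-binding integrins, had 12.5 and 13.4 against 12 and 9.47 CPM (adjusted p = 0.552). Of 20 profibrotic signalling genes, 1 was higher and 1 lower at the same threshold (6.78% and 8.93% of all mRNAs). TGFBR2, a receptor of transforming growth factor beta, had 9.49 and 6.24 CPM in the young sows and 19.6 and 21.4 CPM in the old livers (log2 fold change 1.30, standard error 0.24, adjusted p = 0.228), and TGFB2, one of its ligands, had 0.784 and 1.03 against 0.211 and 0.376 CPM (adjusted p = 0.271). CCN2, a matricellular target of that pathway, had 0.207 and 0.451 against 0.601 and 3.79 CPM (adjusted p = 0.521), and SMAD4, its shared signal carrier, had 10.5 and 9.40 against 6.42 and 9.09 CPM (adjusted p = 0.539).

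Of 17 collagen-binding proteoglycans and fibril partners tested, limma put 0 past an unadjusted p-value of 0.05, higher or lower (6.78% and 8.93% of all mRNAs). FBLN5, an elastic fibre protein, had 0.588 and 0.670 CPM in the young sows and 0.861 and 1.96 CPM in the old livers (adjusted p = 0.482). DCN, or decorin, overlapped, with 3.43 and 5.00 against 1.95 and 5.07 CPM, and FN1, or fibronectin, which hepatocytes also secrete, overlapped with 131 and 162 against 81.7 and 201 CPM. Both had their lowest value in old replicate 1, as did COL3A1 and COL1A2.

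Markers of other cells were measured in the same livers, with 0 adjusted calls in limma. The exact test of edgeR called TAGLN and, among the interferon-stimulated genes, RSAD2 (adjusted p = 0.0498) and IRF7 (adjusted p = 0.0478), both of which were high in old replicate 1. The 5 macrophage markers summed to 217 and 249 CPM in the young sows and 343 and 295 CPM in the old livers. C1QA made up most of this sum, at 181 and 204 against 255 and 241 CPM. CD68, at 18.9 and 15.9 against 28.9 and 27.4 CPM, and MARCO were also higher in both old livers. CSF1R overlapped (2.48 and 5.05 against 4.14 and 6.63 CPM), as did TIMD4 (12.8 and 23.3 against 52.3 and 10.7 CPM). The 6 T and NK cell markers summed to 7.16 and 9.19 against 19.2 and 12.8 CPM, and 5 of 6 were above both young livers in both old livers (24.4% of all mRNAs). Cholangiocyte markers summed to 9.57 and 11.8 against 7.70 and 19.4 CPM over 5 genes, an order shared with COL3A1. Of 10 skeletal muscle markers sought, only ACTA1 had a row under its identifier, at 0.0160 to 0.863 CPM, and the others were not analysed here. Of 9 hepatocyte markers, 4 lay lower in both old livers (25% of all mRNAs), with ALB at 29468 and 35205 CPM in the young sows and 16534 and 23978 CPM in the old livers (adjusted p = 0.352, limma). The part of these cells in the collagen values was not tested.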

How the data were processed

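RNA-seq was performed on the livers of 2 young and 2 old sows, grouped by the sample titles. For mRNAs, the authors deposited CPM values under the name TPM, crediting Salmon 0.6.0, after alignment with TopHat2 2.0.14 (build Sscrofa10.2) and assembly with StringTie 1.2.3. As deposited, 99.987% (young replicate 1) to 100% of the CPM values above 0 were whole multiples of 1 step per library, within 1.1 half-units of the last of 3 decimals, so no gene length enters them, and whole reads were recovered. For miRNAs, mirdeep2 gave the deposited signal, whose scaling total is unknown here. The lncRNA and circRNA tables were not used.

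Symbols were attached to 11654 of 21607 identifiers. The gene lists hold only the genes with a row under such a symbol. These were 15 of 23 sought for collagen folding and modification, and 9 of 14 stellate cell and fibroblast markers. Of endothelial markers 6 of 10 had a row, and of macrophage markers 5 of 9. SERPINH1, P4HB and PPIB of the folding list had none. Old and young livers were compared with limma 3.58.1 in R 4.3.3 on log2(CPM + 1) over the 16898 mRNAs with a value above 0 in 2 or more libraries (Benjamini-Hochberg adjustment over all of them), and with the exact and quasi-likelihood tests of edgeR 4.0.16 on the recovered reads. Single values were compared by an exact permutation test in Python 3.11.15 with numpy 2.4.6 and pandas 2.3.3, Poisson intervals came from scipy 1.17.1 and figures from matplotlib 3.10.9. The fits were tested on simulated counts, where limma called only a minority of the genes given a change. Its 0 calls therefore say little about the absence of a change. Values are given one by one for collagen genes with a mean of at least 1 CPM, and for those with at least 100 summed reads and no overlap between ages, and elsewhere for up to 2 genes per list and direction with the smallest p-value among those with a mean of at least 1 CPM and no overlap. LAMB3, LUM, VIM, ACTA2, LRAT, LYVE1, NID1, SPARC, TIMP1, MMP8, MMP13, DDR1, TGFB2, DCN and FN1, and the collagen genes named below those limits, were chosen after their values were seen. Members and lists were chosen with earlier results of these data known. A gene of the breakdown list is not reported here.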

Additional observations from a re-analysis of the deposited data

How the results depend on the processing

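The counts of mRNAs and collagen genes called by limma were 0 in the main analysis. The mRNA count became 2 when only mRNAs with a mean of at least 1 CPM were tested and 531 with the exact test of edgeR, and that of collagen genes was 0 in every alternative. Collagen genes higher at an unadjusted p-value under 0.05 numbered 3 in the main analysis, 7 with a pseudocount of 0.1, 5 with 0.5, 6 with a mean-variance trend, 5 with the exact test, 6 with the quasi-likelihood test and 1 to 5 with a library left out, and those lower numbered 1, 2 with a mean of at least 1 CPM and 0 to 1 with a library left out. On either side, 2654 of all 16898 mRNAs passed an unadjusted p-value under 0.05 in the main analysis. They numbered 2438 and 2626 with pseudocounts of 0.1 and 0.5, 2415 with the trend, 2191 with the exact and 2485 with the quasi-likelihood test. Collagen genes above both young livers in both old livers numbered 14, and 3 of 9 with a mean of at least 1 CPM. After TMM scaling 15 lay above and 2 below. Of all mRNAs, 4894 and 3235 did so after TMM scaling, against 4119 and 4219 without it. With a library left out, such an order is easier by construction.

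The median log2 fold change of the fibrillar chains, 0.14, was 0.34 with a pseudocount of 0.1, 1.07 with either test of edgeR and 0.0431 to 0.27 with a library left out. That of type IV, 0.11, was 0.34 and 0.18 with pseudocounts of 0.1 and 0.5, 1.14 with a mean of at least 1 CPM, which leaves COL4A2 alone, 0.64 with either test of edgeR and 0.0942 to 0.20 with a library left out. That of the other types, 0.05, was 0.60 and 0.13 with the 2 pseudocounts, -0.33 with a mean of at least 1 CPM, 0.72 and 0.71 with the exact and quasi-likelihood tests and 0.0456 to 0.14 with a library left out. Under edgeR the median of all mRNAs shifted by 0.13. COL3A1 was at 0.11 with both tests of edgeR, and with a library left out COL3A1 ranged from -1.18 to 0.71 and COL1A2 from -0.63 to 1.07. The causes were not tested beyond what the construction of an alternative shows. The difference of the log2 ratio of COL6A1 to COL6A2 ran from -1.69 to 0.24 with a library left out and that of COL6A3 to COL6A1 from -2.08 to 0.05, the first above 0 without young replicate 1 and the second without young replicate 2.

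The replicate numbers do not come from shared animals, and over 16898 mRNAs the deviations of same-numbered livers correlated at 0.09, but over the 30 tested collagen genes at 0.40. With the replicate number as a block, 0 collagen genes were called and 3 higher and 1 lower passed an unadjusted p-value under 0.05, as without it. The depth limits the 20 collagen genes not given one by one, which had 1 to 243 reads over the 4 libraries.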

Other observations

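The miR-29 family, whose members are known to repress collagen mRNAs, was measured in small RNA libraries labelled as the same livers, as a signal scaled to an unstated total. miR-29a-3p had 332248 and 216984 in the young and 242708 and 244986 in the old livers, miR-29b-3p had 7208 and 4913 against 6769 and 4140, and miR-29c-3p had 12670 and 8539 against 19080 and 10705. The age groups overlapped for all 3. The minor arms of miR-29a and miR-29c did not overlap, with miR-29a-5p at 906 and 589 against 509 and 435 and miR-29c-5p at 220 and 169 against 363 and 282. Of the minor arms of miR-29b, miR-29b-1-5p did not overlap (103 and 88.5 against 45.5 and 85.6) and miR-29b-2-5p did (192 and 125 against 114 and 155). These values carry no test.

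Of the collagen genes that are direct neighbours among protein-coding genes on Sscrofa11.1, COL3A1 and COL5A2 (chromosome 15) were ordered differently over the young livers, where COL3A1 was 2.44 times higher and COL5A2 0.657 times as high in replicate 2 as in replicate 1. COL4A5 and COL4A6, neighbours on chromosome X, likewise differed, since COL4A5 had 27 and 0 reads in the young and 80 and 109 in the old livers while COL4A6 had 26 and 22 against 11 and 33. COL4A3 and COL4A4, neighbours on chromosome 15, both stayed between 22 and 50 reads in every library.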
